A study of Nasonia vitripennis with 39 samples.

Results

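The difference between females and males of the same ploidy was compared between abdomens and heads of the parasitoid wasp Nasonia vitripennis. The comparison used the diploid libraries, which are 19 of the 39 libraries of the series, chosen by their ploidy label. Of the 14621 genes in the count table, 12200 passed the filter on low counts and were tested. For each gene the interaction was the sex difference in abdomens (2N female minus 2N male) minus the sex difference in heads, on the log2 scale. Genes were then sorted by whether their sex bias was the same in both tissues, restricted to 1 tissue, or opposite in direction.

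The animals came from the strain WPL, the Whiting Polyploid Line, a laboratory line that became polyploid spontaneously, and were taken 1 day after emergence. Polyadenylated RNA of heads and of abdomens was sequenced. The diploid libraries (genotype WPL_LSL_2N) comprise 4 of 2N female abdomens, 5 of 2N male abdomens, 5 of 2N female heads and 5 of 2N male heads. The other 20 libraries are 3N females (genotype WPL_LSL_3N) and 1N males (genotype WPL_LSL_1N) of the same strain, with 5 libraries for each sex and tissue. They served as a second set of animals, in which sex and ploidy cannot be told apart. Pooling of animals is not stated in the labels, nor is it stated which head and abdomen belong together, and the p-values therefore rest on the spread among libraries, which may be technical.

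In this haplodiploid order of insects, unfertilised eggs usually develop into males and fertilised eggs into females, so a diploid male is an unusual animal and lets the sexes be compared at equal chromosome number. Sex is read out through transformer, a splicing regulator that is productive in females, and through doublesex, a transcription factor whose female and male splice forms direct the development of sex-specific tissues. The abdomen holds the gonads and much of the fat body, gut and epidermis, while the head holds the brain, eyes and antennae. In a whole abdomen or head, fewer cells of a type and less RNA per cell cannot be told apart.

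The 2N female abdomens held between 19.9 and 45.04 M estimated counts per library, and the 2N male abdomens between 35.67 and 123.7 M. In heads the range was 16.67 to 18.7 M for females and 18.83 to 132 M for males. Libraries over 30 M were 1 of the 4 female abdomens (B27), all 5 male abdomens, none of the female heads and 4 of the male heads (all but B12A), so depth nearly coincides with sex. The opsin Lop1, a defining gene of eyes, reached 1761 to 6054 CPM in every head library and at most 5.46 CPM in any abdomen. The female head library B21 stood apart from the other female heads in genes of the female abdomen, as given below with the genes it touches. Levels are in CPM, a gene's count relative to the TMM-scaled total of its library. Differences are log2 of the fitted female level over the fitted male level, so that a positive value means higher in females. The median of all tested genes was -0.44 in abdomens and 0.02 in heads. It depended on the scaling, and was -0.04 and 0.15 with library totals alone and -0.69 and 0.04 with DESeq2 size factors.

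The sex difference of most genes depended on the tissue. The interaction passed the test (adjusted p under 0.05) for 9574 genes, 78.5% of those tested. It was positive, that is more female in abdomens than in heads, for 4359 genes (35.7%) and negative for 5215 genes (42.7%). This order depended on the scaling, since library totals gave 4786 positive and 4826 negative genes and limma on log2(TPM + 1) gave 4886 and 4494. The sex difference was the larger one in abdomens for 9074 of these genes and in heads for 500. A gene was called biased in a tissue where its adjusted p was under 0.05 and its difference at least 2-fold. In abdomens 3677 genes (30.1%) were higher in females and 5115 (41.9%) higher in males. In heads 502 genes (4.11%) were higher in females and 940 (7.7%) higher in males. Across genes the difference in abdomens was weakly related to that in heads (Pearson r = 0.314, Spearman rho = 0.27, 12200 genes that share their libraries).

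By these calls, 216 genes (1.77%) were female-biased in both tissues and 722 (5.92%) were male-biased in both. A restriction to 1 tissue was called only where the interaction passed, the 95% interval of the other tissue's difference lay within 2-fold in either direction, and the gene reached 1 CPM there. By that rule 2612 genes (21.4%) were female-biased in abdomens alone and 1908 (15.6%) male-biased in abdomens alone. In heads alone, 14 genes (0.115%) were female-biased and 62 (0.508%) male-biased. The bias was reversed in 77 genes (0.631%) that were higher in female abdomens but in male heads, and in 213 genes (1.75%) that were higher in male abdomens but in female heads. No call of bias was made in either tissue for 3194 genes (26.2%).

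The remaining genes were biased in 1 tissue but could not be called restricted to it. Of those biased in abdomens, 320 female-biased (2.62%) and 1126 male-biased genes (9.23%) were under 1 CPM in heads, and 452 female-biased (3.7%) and 1146 male-biased genes (9.39%) missed another condition, the interaction or the interval in heads. Of those biased in heads, 39 female-biased (0.32%) and 24 male-biased genes (0.197%) were under 1 CPM in abdomens, and 20 female-biased (0.164%) and 55 male-biased genes (0.451%) were undecided in abdomens.

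**Figure D1:**
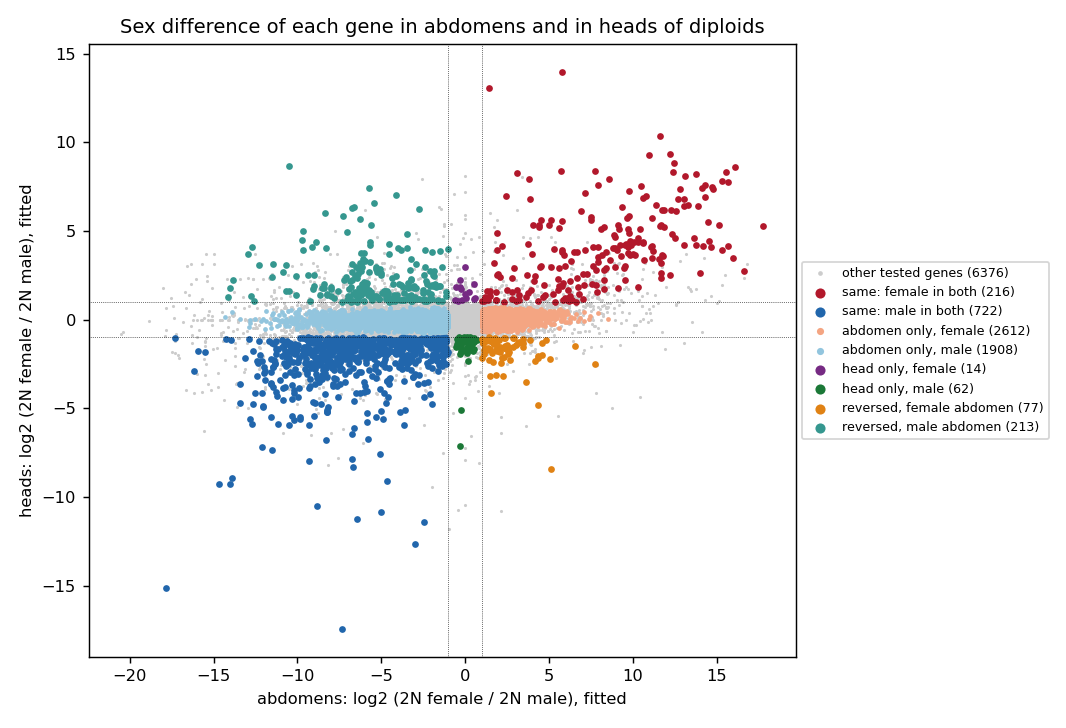
Fitted sex difference of each of the 12200 tested genes in abdomens (horizontal axis, log2 of 2N female over 2N male) and in heads (vertical axis, the same), coloured by class, with dotted lines at 2-fold. The cloud is wide along the abdomen axis and narrow along the head axis, and the 938 genes biased the same way in both tissues lie in the upper right (216) and lower left (722) corners. Where a group has no count, the position of the point is fitted and not a measured fold.

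The sex determination genes each had an interaction, and each in its own way. Transformer (Tra) was the 1 named gene among the 14 female-biased in heads alone. It stood at 492, 564, 538, 512 and 529 CPM in 2N female heads, against 74.1, 66.3, 65.5, 65.4 and 61.4 CPM in 2N male heads. In abdomens it stood at 36.7, 35.8, 33.8 and 29.2 CPM in 2N females, against 30.8, 24.2, 38.5, 37.4 and 37.3 CPM in 2N males. Every female head lay above every male head by a wide margin, while the abdomens of the sexes overlapped. The log2 difference was 2.99 ± 0.11 (SE) in heads and 0.01 ± 0.12 in abdomens (adjusted p = 3.03e-12 and 0.942), and the interaction was -2.98 ± 0.16 (adjusted p = 6.11e-12). In the other animals the head difference was again positive (2.42, adjusted p = 0.000251), but Tra was also higher in 3N female abdomens, at 191, 117, 80.4, 39.4 and 79.3 CPM, than in 1N male abdomens, at 24.8 to 43.4 CPM (log2 1.54, adjusted p = 0.0004). The gene-level counts do not separate the splice forms on which the function of Tra rests.

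Doublesex (Dsx) was far lower in female than in male abdomens and somewhat higher in female than in male heads. In abdomens it had 11.4, 10.8, 11.9 and 7.97 CPM in 2N females, against 416, 360, 416, 448 and 455 CPM in 2N males. In heads it had 152, 238, 232, 252 and 252 CPM in 2N females, against 153, 122, 104, 128 and 111 CPM in 2N males. The abdomens were fully apart, and the heads overlapped only because B21 was the lowest female head. The log2 difference was -5.31 ± 0.15 in abdomens (adjusted p = 4.98e-15) and 0.86 ± 0.14 in heads (adjusted p = 0.000139), where it missed the 2-fold limit, and the interaction was -6.18 ± 0.21 (adjusted p = 2.72e-14). In the other animals Dsx had 456, 360, 210, 22.4 and 208 CPM in 3N female abdomens, against 383 to 452 CPM in 1N male abdomens. That difference had the same sign, at -0.77, but missed the threshold (adjusted p = 0.111). Fruitless (Fru), a transcription factor of male courtship behaviour in flies, had a small interaction (-0.60 ± 0.19, adjusted p = 0.00671), from -0.15 in abdomens and 0.45 in heads. In the other animals the difference of Fru was 1.36 in heads (adjusted p = 0.00802) and 0.05 in abdomens (adjusted p = 0.883). Its interaction there was -1.30 (adjusted p = 0.0107).

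**Figure D2:**
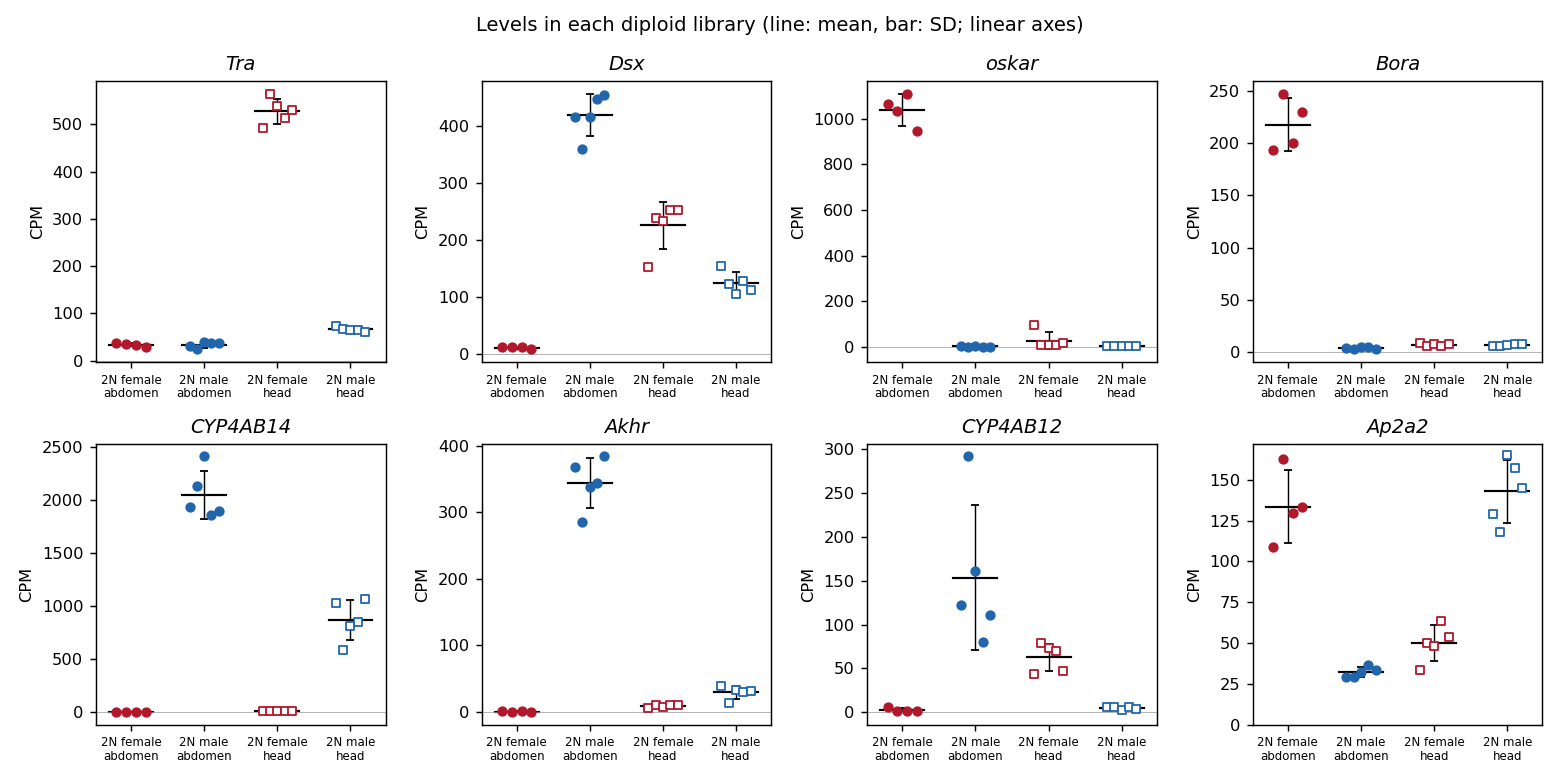
Level in CPM of 8 genes in each 2N library (filled circles, abdomens; open squares, heads; red, females; blue, males), with the mean as a line and the SD as a bar on linear axes. Tra is high in female heads alone, oskar and Bora in female abdomens, CYP4AB14 in both male tissues, and CYP4AB12 and Ap2a2 change the sex in which they are higher between the tissues.

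The 216 genes female-biased in both tissues were mainly genes of the female abdomen. Their median level was 114 CPM in 2N female abdomens, 0.486 CPM in 2N male abdomens, 2.01 CPM in 2N female heads and 0.147 CPM in 2N male heads, and the female abdomen was the highest group for 198 of them. The median log2 difference was 8.01 in abdomens and 3.83 in heads, or 7.90 and 3.72 with genes that have a group without counts set to their bound from 3 counts. The interaction also passed for 116 of them, with the larger difference in abdomens for 108. Among the 6 with a name were oskar, which organises the germ plasm of the egg, the cell cycle genes Cdk4 and cycB, the glutathione transferase GstS3, the serine protease SP37 and the protease homologue SPH42.

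The gene oskar had 1063, 1035, 1109 and 945 CPM in 2N female abdomens, against 0.43 to 2.9 CPM in the 5 male abdomens. It had 94.4, 9.26, 8.13, 9.36 and 15.7 CPM in 2N female heads, against 2.98, 2.5, 4.49, 3.39 and 3.26 CPM in 2N male heads. All female heads exceeded all male heads, and B21 stood far above the other 4. The log2 difference was 9.51 ± 0.63 in abdomens and 3.03 ± 0.59 in heads (adjusted p = 2.23e-09 and 0.0012). Without B21 the head difference of oskar was 1.65 (adjusted p = 0.00194). GstS3, a detoxifying enzyme, had 249, 229, 180 and 190 CPM in 2N female abdomens, against 19.4 to 27.6 CPM in 2N male abdomens, and 19.8, 10.7, 13.1, 8.94 and 8.85 CPM in 2N female heads, against 4.07 to 5.6 CPM in 2N male heads. Both tissues were fully apart, and its head difference was 1.41 with all libraries and 1.16 without B21 (adjusted p = 1.76e-05). SPH42 was the 1 named gene here with a like bias in both tissues, 1.5 ± 0.30 in abdomens and 1.62 ± 0.29 in heads (interaction -0.13 ± 0.42, adjusted p = 0.802). It had 158, 160, 139 and 131 CPM in 2N female abdomens, against 38.7 to 64.2 CPM in 2N male abdomens. Its head values were 35.9, 107, 115, 202 and 102 CPM in 2N females, against 26.5 to 47.5 CPM in 2N males, so that B21, here the lowest female head, overlapped with the males.

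Most of these calls rested on the female head library B21. Without it, 61 genes were female-biased in both tissues (0.497% of 12278 tested), of which 57 were among the 216 and 159 of the 216 were lost. The 159 lost genes had a median of 131 CPM in 2N female abdomens, 6.21 CPM in B21, 0.175 CPM in the other 4 female heads and 0.0779 CPM in male heads. The 57 retained genes had 56.9 CPM in 2N female abdomens, 13.2 CPM in B21, 7.29 CPM in the other female heads and 0.691 CPM in male heads. Lost and retained genes were told apart by leaving out B21, so these head levels follow in part from that choice. Of the lost genes, 136 belonged to a set of 522 of the 12200 tested genes, as did 25 of the 57 retained genes. The genes of the set reached 10 CPM in 2N female abdomens and were there at least 16-fold above both 2N male abdomens and 2N male heads. Both the set and the class ask for a higher level in female than in male abdomens, so their overlap follows in part from these rules. B21 was the highest female head for 94.2% of that set and for 31.8% of all genes. The summed level of the set, as a share of its mean in 2N female abdomens, was 7.84% in B21, 7.25% to 9.08% in the other female heads and 1.43% to 1.61% in male heads. The low share in male heads follows in part from the choice of the set, which used the male heads but not the female heads. The part of abdominal RNA in these calls was not tested.

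Among the named genes, the head difference of cycB, a cyclin of mitosis, was 4.77 with B21 and 0.89 without it (adjusted p = 0.425). Cdk4, a kinase of the early cell cycle, had 170, 243, 266 and 198 CPM in 2N female abdomens, against 1.23 to 2.71 CPM in 2N male abdomens, and 10.2 CPM in B21 beside 3.12 to 4.25 CPM in the other female heads and 0.852 to 2.3 CPM in male heads. Its head difference was 0.96 without B21 (adjusted p = 0.00538), just under 2-fold. The head difference of SP37 was 4.63 with B21 and 1.77 without it (adjusted p = 0.0781), and that of the uncharacterised LOC100679694 was 6.84 and 3.78 (adjusted p = 0.0768). In the 3N and 1N libraries, 14 of the 55 retained genes tested there and 2 of the 159 lost genes were again female-biased in heads. Of all 11725 genes tested there, 0.708% were female-biased in heads. The median head difference there was 0.65 for the retained genes and 0 for the lost ones, while the abdominal medians were 4.49 and 7.86.

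**Figure D3:**
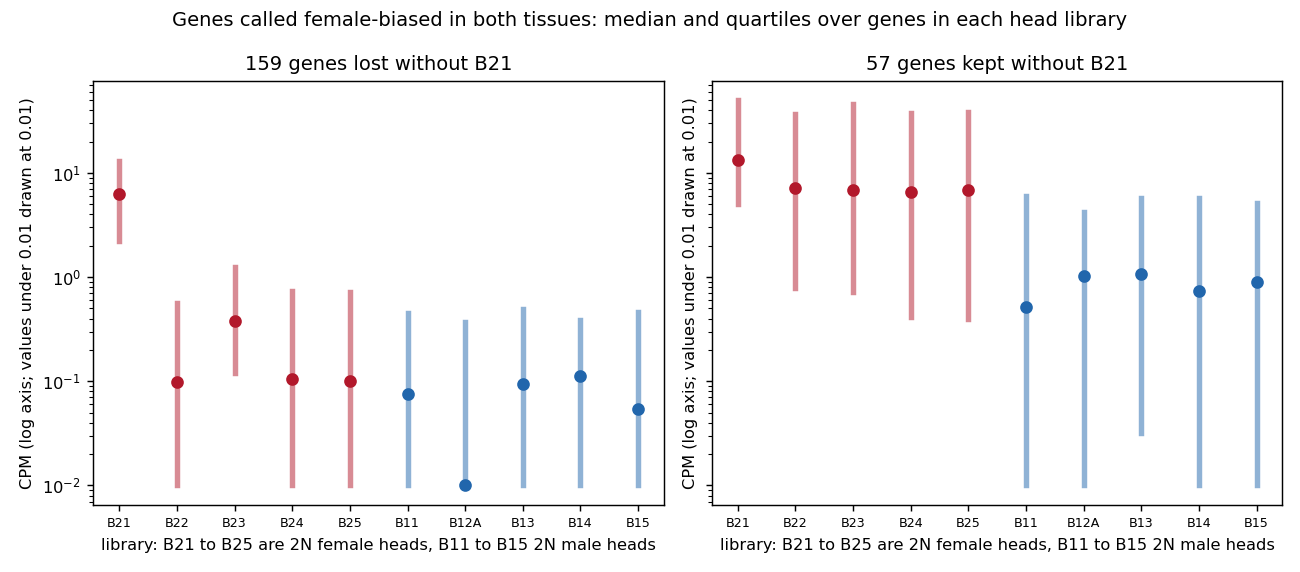
Level in CPM (log axis, median as a point and quartiles as a bar, over genes) in each 2N female head (B21 to B25, red) and 2N male head (B11 to B15, blue), for the 159 genes no longer called without B21 and the 57 that stayed. In the left panel B21 has a median of 6.21 CPM, B23 has 0.383 CPM and the other female heads lie within the range of the male heads, while in the right panel all 5 female heads have higher medians than the 5 male heads. The panels were split by the loss of the call without B21, so the contrast between them follows in part from that choice.

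In the other classes most genes kept their call without B21. The 722 genes male-biased in both tissues became 628 (5.11%), of which 617 were the same genes. Of the 2612 and 1908 genes female-biased and male-biased in abdomens alone, 2502 and 1841 were retained. Of the 14 and 62 genes restricted to heads, 13 and 53 were retained, and of the 77 and 213 reversed genes, 66 and 189.

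The 722 genes male-biased in both tissues had a median of 0.401 CPM in 2N female abdomens, 47.3 CPM in 2N male abdomens, 8.01 CPM in 2N female heads and 29.5 CPM in 2N male heads. The median log2 difference was -6.61 in abdomens (-6.41 with genes at 0 counts at their bound) and -1.75 in heads. The interaction also passed for 608 of them, with the larger difference in abdomens for 593. The 46 named genes included detoxifying enzymes, muscle genes and neuronal receptors. Of the 42 tested cytochrome P450 genes 10 were in the class, beside 5.92% of all genes. The male head B12A, at 18.83 M nearly as shallow as the female heads, lay above all 5 female heads for 650 of the 722 genes. The deep female abdomen B27 lay below all male abdomens for 708. Both libraries were among those that set the calls, so these counts follow in part from the calls. Among the 3194 genes called in neither tissue, the same counts were 980 and 651.

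Cytochrome P450 enzymes oxidise lipids, hormones and foreign compounds. CYP4AB14 had 0.456, 0.603, 0.375 and 0.308 CPM in 2N female abdomens, against 1938, 2131, 2410, 1860 and 1893 CPM in 2N male abdomens. It had 3.39, 5.68, 5.31, 7.12 and 8.05 CPM in 2N female heads, against 1023, 587, 814, 851 and 1066 CPM in 2N male heads. Both tissues were fully apart, with a log2 difference of -12.14 ± 0.27 in abdomens and -7.20 ± 0.20 in heads and an interaction of -4.94 ± 0.34 (adjusted p = 1.01e-10).

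CYP9AG7 was the extreme case on the side of the head. It had 0.308 CPM in B21 and no count in the other female heads, against 10830, 3562, 14427, 12265 and 14826 CPM in 2N male heads. In abdomens it had 0 to 0.112 CPM in 2N females, against 29.4, 5.56, 9.81, 6.46 and 4.84 CPM in 2N males. Its interaction was positive (10.07 ± 1.86, adjusted p = 0.000856), so the male excess was larger in heads. CYP6CK11 shared the head pattern, with 0 to 0.2 CPM in 2N female heads against 147, 33, 130, 148 and 164 CPM in 2N male heads, but overlapped in abdomens, at 3.66 to 4.49 CPM in 2N females and 2.53 to 7.02 CPM in 2N males. CYP6CK8 had 1 count over all female abdomens, against 143 to 195 CPM in male abdomens (ratio 20860, 95% counting interval 3744 to 823954), and its head difference was -8.92 ± 0.52. P450 genes have near-identical relatives, between which reads may have been divided.

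The uncharacterised LOC100114997 had the highest values of the class, with 0.342, 0.425, 0.112 and 0.132 CPM in 2N female abdomens against 50929, 99353, 62276, 51020 and 53707 CPM in 2N male abdomens. The head values were 0.05 to 0.196 CPM in 2N females, against 5060, 1470, 4690, 5594 and 7017 CPM in 2N males. No female library came near any male one, and the male abdomens were in turn above the male heads.

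Akhr, the adipokinetic hormone receptor through which insects mobilise fat body reserves, had 0.761, 0.223, 0.787 and 0.352 CPM in 2N female abdomens, against 368, 285, 338, 343 and 384 CPM in 2N male abdomens. In heads it had 6.67, 10.3, 7.89, 10 and 11.1 CPM in 2N females, against 39.5, 13.3, 33.4, 29.7 and 31.1 CPM in 2N males. Groups did not overlap in either tissue, and the difference was -9.39 ± 0.35 in abdomens but -1.68 ± 0.24 in heads (interaction -7.71 ± 0.43, adjusted p = 7.27e-12). Zasp66, a protein of the muscle Z disc in flies, had 4.15 to 5.45 CPM in 2N female abdomens against 360 to 555 CPM in 2N male abdomens, and 17.1, 34.1, 25.3, 49.7 and 30.7 CPM in 2N female heads against 96, 161, 72.2, 83.5 and 105 CPM in 2N male heads. The tropomyosin Tm1 was also male-biased in both, at 221 to 350 CPM in 2N female heads against 526, 1659, 418, 509 and 506 CPM in 2N male heads, where B12A was far above the rest. Its interaction of -0.93 ± 0.41 was close to the threshold (adjusted p = 0.047). Of the 3 muscle genes tested, 1 rose and 2 fell in female abdomens, beside 30.1% and 41.9% of all genes. In female heads 0 of the 3 rose and 2 fell, beside 4.11% and 7.7% of all genes. Tm2, the one that rose, went the other way in abdomens, with 124 to 148 CPM in 2N females against 57.3 to 65.9 CPM in 2N males, and had no difference in heads (-0.00, interval -0.19 to 0.19).

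Genes female-biased in abdomens alone formed the largest restricted class. Over the 2612 genes the median was 89.0 CPM in 2N female abdomens, 19.8 CPM in 2N male abdomens, 28.4 CPM in 2N female heads and 25.8 CPM in 2N male heads. The median difference was 2.00 in abdomens and 0.13 in heads, and the female abdomen was the highest group for 2445 genes. Long noncoding RNAs made up 0.345% of the class and 4.4% of all genes tested. The class leaves out genes under 1 CPM in heads, and the part of level in these shares was not tested.

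Bora, a cofactor of mitotic kinases in flies, had 193, 247, 201 and 230 CPM in 2N female abdomens, against 4.45, 3.44, 4.78, 4.64 and 3 CPM in 2N male abdomens. Heads gave 9.19, 5.88, 7.75, 6.39 and 7.8 CPM in 2N females, against 5.53, 6.08, 7.05, 7.71 and 8.37 CPM in 2N males. The abdomens were far apart and the heads overlapped, with differences of 5.75 ± 0.16 and 0.09 (interval -0.24 to 0.41) and an interaction of 5.66 ± 0.22 (adjusted p = 7.9e-14).

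Most genes of dividing cells rose in female abdomens. Of 16 cell cycle and chromosome genes tested, 14 rose in female abdomens and 0 fell, beside 30.1% and 41.9% of all genes, with a median difference of 3.92 in abdomens and 0.01 in heads. In heads 2 rose, Cdk4 and cycB, neither of them without B21. Of 16 genes of DNA replication, repair and recombination, 13 rose in female abdomens and 0 fell (median 2.86), beside the same shares of all genes, and 0 were called in heads.

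Both DNA methylation genes tested were called female-biased in abdomens alone, beside 21.4% of all genes. The maintenance methyltransferase Dnmt1a had 183, 241, 200 and 209 CPM in 2N female abdomens, against 47.9 to 55.6 CPM in 2N male abdomens (log2 2.02 ± 0.13), with a head difference of -0.29 ± 0.12. The methyl-CpG-binding gene Mbd had a difference of 2.94 ± 0.13 in abdomens and 0.62 ± 0.12 in heads. All 3 germ plasm and germline genes rose in female abdomens, beside 30.1% of all genes. The RNA-binding repressor nanos, needed for germ cells, had 84.6, 153, 105 and 114 CPM in 2N female abdomens and no count in 2N male abdomens, which makes it at least 13177-fold higher by the limit that 3 counts over the group allow. In 2N female heads nanos stood at 0 to 1.59 CPM with B21 the highest, and in 2N male heads at 0 to 0.219 CPM.

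Of 15 embryo patterning genes tested, 6 rose and 9 fell in female abdomens (median -2.13), beside 30.1% and 41.9% of all genes. With limma on log2(TPM + 1) the falls in abdomens were 4. In heads 0 rose and 1 fell, beside 4.11% and 7.7% of all genes. Giant (Gt), a gap gene of the early embryo, had 169, 279, 349 and 243 CPM in 2N female abdomens against 5.98 to 12.4 CPM in 2N male abdomens, and 11.6 to 19.4 CPM in 2N female heads against 10.7 to 18.1 CPM in 2N male heads. The gap gene Kr had 40.7, 49.6, 48 and 37.5 CPM in 2N female abdomens and no count in 2N male abdomens (at least 4943-fold), while in heads it was lower in females, at 3.9 to 6.05 CPM against 5.77 to 11.1 CPM in males. Lobe, Cad, Eve and Hb were the other 4 that rose in abdomens.

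Dynein, dynactin and cilia genes rose in female abdomens for 7 of 13 tested and fell for 0 (median 1.02), beside 30.1% and 41.9% of all genes, with 0 called in heads. With RLE factors or DESeq2 the rises were 4 of 13. Of 8 ribosomal protein genes 4 rose in female abdomens, all mitochondrial by name, beside 30.1% of all genes. Of 2 genes named for the testis or sperm of flies, Topi was higher in female abdomens (1.36 ± 0.12), and Dcst1 had no count in 2N female abdomens against 1.73 to 3.34 CPM in 2N male abdomens.

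Genes male-biased in abdomens alone were at very low levels in 2N female abdomens. Over the 1908 genes the median was 2.60 CPM in 2N female abdomens, 52.7 CPM in 2N male abdomens, 69.6 CPM in 2N female heads and 71.5 CPM in 2N male heads. The female abdomen was the lowest of the 4 groups for 1798 of them. The median difference was -3.71 in abdomens and -0.05 in heads.

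The chitinase Cht5, which degrades cuticle chitin, had 0.266, 0.112, 0.187 and 0.397 CPM in 2N female abdomens, against 937, 486, 712, 438 and 780 CPM in 2N male abdomens. In heads it had 8.73 to 12 CPM in 2N females, against 4.13 to 16.1 CPM in 2N males. The sexes were fully apart in abdomens and overlapped in heads, with an interaction of -11.80 ± 0.66 (adjusted p = 4.59e-12). The yellow family gene Y-x1c had 0.337 to 0.573 CPM in 2N female abdomens against 365 to 957 CPM in 2N male abdomens, and 4.75 to 6.32 CPM in 2N female heads against 3.98 to 8.92 CPM in 2N male heads. The uncharacterised LOC100121387 had no count in 2N female abdomens and 83.1, 33.4, 56.2, 30.7 and 52.1 CPM in 2N male abdomens, at least 2257-fold lower in females.

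The chloride channel gene pHCl had 0.342, 0.268, 0.225 and 0.441 CPM in 2N female abdomens, against 53.3, 36.8, 39.1, 43.7 and 37.6 CPM in 2N male abdomens. Head levels were 362, 418, 386, 345 and 390 CPM in 2N females, against 342, 436, 391, 384 and 335 CPM in 2N males. The female abdomens were all lower than any male abdomen, and the heads of the sexes overlapped, with a head difference of 0.01 (interval -0.23 to 0.25) beside -7.07 ± 0.19 in abdomens. In the other animals the 3N female abdomens had 17.2, 16.6, 6.23, 0.37 and 4.13 CPM of pHCl, a difference of -1.98 from the 1N males (adjusted p = 0.00253).

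Of 20 ion channels and transmitter receptors of neurons, 0 rose and 15 fell in female abdomens (median -5.73), beside 30.1% and 41.9% of all genes, and in heads 1 rose and 7 fell (median -0.26), beside 4.11% and 7.7% of all genes. Among these, 6 were lower in females in both tissues, the sodium channel Para, the glutamate-gated chloride channel GluCl and the acetylcholine receptor subunits nAChRa3, nAChRa4, nAChRa10 and nAChRb1. Para had 75.4, 164, 141, 176 and 174 CPM in 2N female heads, against 280, 303, 355, 373 and 280 CPM in 2N male heads (-1.12 ± 0.21, adjusted p = 0.000683). In the 3N and 1N heads the difference of Para was 0.10 (adjusted p = 0.931) and that of GluCl 0.02 (adjusted p = 0.997).

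Most members of the enzyme, cuticle and protease families fell in female abdomens. Of the 42 P450 genes 1 rose and 38 fell in female abdomens (median -8.17, or -7.76 with genes at 0 counts at their bound), and 2 rose and 12 fell in female heads. Of 29 glutathione transferases and carboxylesterases 4 rose and 24 fell in abdomens (median -4.12), and 2 rose and 6 fell in heads. Cuticle proteins and chitinases gave 1 rise and 28 falls among 34 in abdomens (median -6.80, bound -5.99), and 1 rise and 7 falls in heads. Serine proteases and their homologues gave 3 rises and 26 falls among 37 in abdomens (median -5.52, bound -4.66), and 5 rises and 7 falls in heads. Yellow and royal jelly protein-like genes gave 1 rise and 12 falls among 15 in abdomens, and 0 rises and 3 falls in heads. These shares stand beside 30.1% and 41.9% of all genes in abdomens and 4.11% and 7.7% in heads.

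Of 7 genes listed under hormones and their receptors, 0 rose and 6 fell in female abdomens, beside 30.1% and 41.9% of all genes. The list includes CYP314A1, which is also counted among the P450 genes. With library totals the falls were 5. In heads 1 of the 7, Akhr, fell, beside 7.7% of all genes. The inotocin receptor gene ITR had 0.573 to 0.913 CPM in 2N female abdomens against 40.8 to 52.9 CPM in 2N male abdomens. All 3 hexamerins, which are storage proteins, fell in female abdomens, beside 41.9% of all genes, and 0 were called in heads. Hex70b had 0.0447 to 0.114 CPM in 2N female abdomens against 8.53 to 22.4 CPM in 2N male abdomens, and 1.23 to 4.4 CPM in 2N female heads against 1.2 to 3.88 CPM in 2N male heads. Of 65 subunits of the respiratory complexes, 0 rose and 13 fell in abdomens, a smaller share than the 41.9% of all genes that fell. The falls were 8 with library totals and 21 with RLE factors or DESeq2. The median of the 65 was -0.54, near that of all genes (-0.44), and -0.14 with library totals. In heads 0 of them rose and 1 fell.

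Counts of 127 of 214 odorant receptors passed the filter, of which 13 rose and 39 fell in female abdomens, 5 rose and 2 fell in female heads, and 72 were called in neither tissue. Both abdominal shares were below those of all genes (30.1% rose and 41.9% fell), and limma on log2(TPM + 1) called 6 rises and 5 falls there. Of 19 gustatory receptors tested 0 rose and 10 fell in abdomens (2 with limma), beside the same shares of all genes. In heads, where 4.11% of all genes rose and 7.7% fell, 0 of these receptors rose and 2 fell. One of these, Gr32, had 0 to 0.147 CPM in 2N female heads against 5.19, 2.61, 2.48, 5.03 and 3.33 CPM in 2N male heads, and 1 count over all abdomens of both sexes. Of the 2 eye genes, the opsin Lop1 had no count in 2N female abdomens and 1.02 to 5.46 CPM in 2N male abdomens, while in heads it had 5342 to 6054 CPM in 2N females against 1761 to 5788 CPM in 2N males (log2 0.73, adjusted p = 0.14). The eye gene white was called in neither tissue, and of 2 odorant-binding proteins 1 fell in female abdomens.

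**Figure D4:**
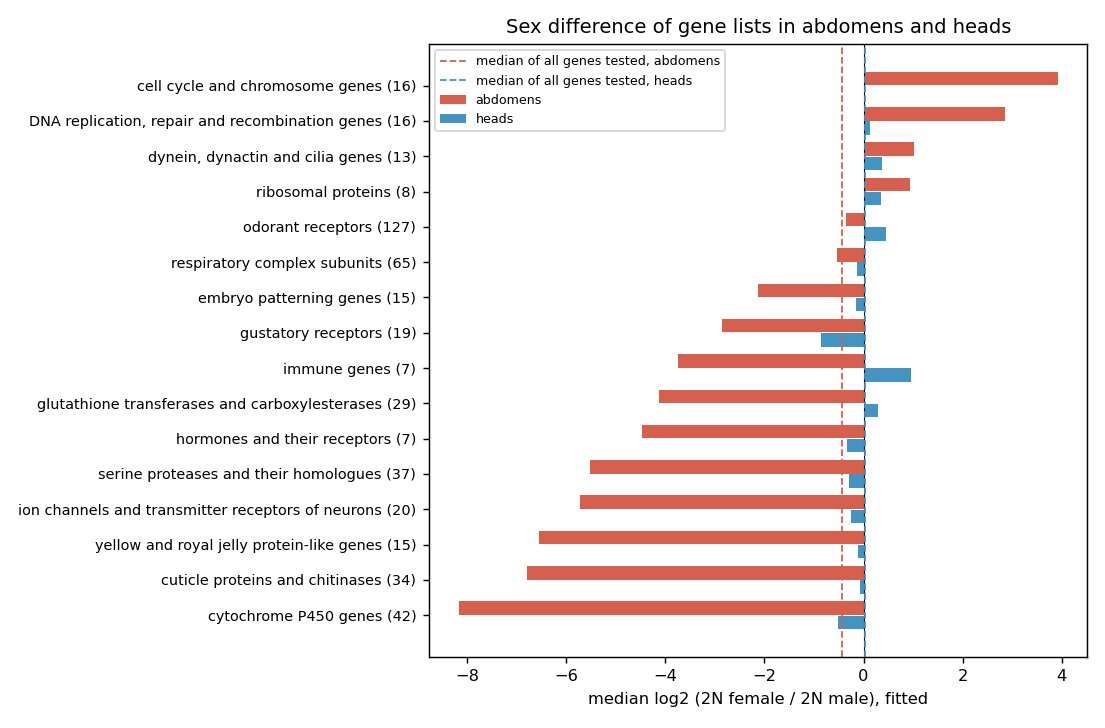
Median log2 of 2N female over 2N male for 16 gene lists (number of tested genes in parentheses) in abdomens (red bars) and heads (blue bars), with dashed lines at the median of all genes tested (-0.44 in abdomens and 0.02 in heads). Head medians stay between -0.85 and 0.96 while abdominal medians run from -8.17 to 3.92.

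The 14 female-biased genes had a median of 15.8 CPM in 2N female abdomens, 19.8 CPM in 2N male abdomens, 62.3 CPM in 2N female heads and 23.4 CPM in 2N male heads. Besides Tra, the uncharacterised LOC116417464 had 48, 33.7, 34.5, 24 and 33.6 CPM in 2N female heads, against 5.09, 9.14, 10.6, 6.29 and 6.53 CPM in 2N male heads (log2 2.21 ± 0.23), and 9.74 to 16.9 CPM in 2N female abdomens against 10.8 to 21.5 CPM in 2N male abdomens. In the other animals the head difference of LOC116417464 was 0.54 (adjusted p = 0.75) and that of abdomens -2.01 (adjusted p = 0.00988).

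The 62 male-biased genes had a median of 74.7 CPM in 2N female abdomens, 70.6 CPM in 2N male abdomens, 30.9 CPM in 2N female heads and 82.2 CPM in 2N male heads. The head median difference was -1.18, close to the 2-fold limit. One of them, LOC100121327, stood at 0.667, 0.637, 0.383, 1.25 and 0.95 CPM in 2N female heads against 148, 57.4, 87.2, 125 and 117 CPM in 2N male heads. In abdomens it had 6.79 to 8.94 CPM in 2N females, against 5.23 to 14.5 CPM in 2N males, so that these overlapped. Its head difference was -7.11 ± 0.33 and its interaction 6.83 ± 0.43 (adjusted p = 4.77e-11), and the 3N and 1N heads differed by -6.42 (adjusted p = 7.85e-06). In those animals its abdomens differed too, by -2.05 (adjusted p = 0.00178), so that LOC100121327 was male-biased in both tissues there. The shallow male head B12A lay above all female heads for 61 of the 62 genes and below all of them for all 14 of the female-biased ones. B12A was among the libraries that set these calls, so the ranks follow in part from them.

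The 77 genes higher in female abdomens and in male heads had a median difference of 2.16 in abdomens and -1.55 in heads. Ap2a2, a subunit of the clathrin adaptor AP-2, had 109, 163, 130 and 133 CPM in 2N female abdomens, against 29.3, 29.3, 32, 36.3 and 33.6 CPM in 2N male abdomens. In heads it had 33.3, 50, 48.4, 63.5 and 53.9 CPM in 2N females, against 129, 118, 165, 157 and 145 CPM in 2N males. Groups did not overlap in either tissue, with differences of 2.06 ± 0.15 and -1.52 ± 0.14 and an interaction of 3.58 ± 0.21 (adjusted p = 1.58e-11). In the other animals the abdominal difference of Ap2a2 was 1.71 (adjusted p = 9.79e-05) and that of heads -0.08 (adjusted p = 0.946).

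The ubiquitin ligase gene Nedd4 had 210, 332, 300 and 305 CPM in 2N female abdomens against 94.6, 73.1, 80.4, 110 and 105 CPM in 2N male abdomens. Nedd4 had 27.9, 31.3, 30.5, 36.1 and 38.2 CPM in 2N female heads, against 77, 53.7, 82.6, 92.4 and 93.4 CPM in 2N male heads. The sexes were apart in both tissues in opposite directions, by 1.63 ± 0.17 and -1.28 ± 0.16. The 3N and 1N heads differed by -0.51 (adjusted p = 0.305). The uncharacterised LOC107980460 had the widest reversal of this kind among the genes shown, with 87.3, 74.8, 58.3 and 58.2 CPM in 2N female abdomens against 1.34 to 3.52 CPM in 2N male abdomens, and 0.049 to 0.873 CPM in 2N female heads against 118, 161, 34.7, 88.5 and 109 CPM in 2N male heads. Its reversal was also found in the other animals, with 3.40 in abdomens and -8.72 in heads (adjusted p = 0.00276 and 0.000251).

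The 213 genes higher in male abdomens and in female heads had a median of 0.306 CPM in 2N female abdomens, 12.6 CPM in 2N male abdomens, 7.58 CPM in 2N female heads and 1.71 CPM in 2N male heads. The median difference was -5.62 in abdomens (-5.57 with genes at 0 counts at their bound) and 1.84 in heads. The 9 named genes were CYP4AB12, the cuticular gene apd-3, the carboxylesterase CCE-A4, the defensin Def2-3, the odorant receptors Or36 and Or236 and the serine proteases SP43, SP68 and SP128. CYP4AB12 had 5.36, 1.14, 1.57 and 1.5 CPM in 2N female abdomens, against 122, 292, 162, 80.5 and 111 CPM in 2N male abdomens. In heads it had 44, 78.5, 73.4, 69.8 and 47.3 CPM in 2N females, against 5.76, 5.56, 2.7, 5.61 and 3.57 CPM in 2N males. Both tissues were fully apart, and the interaction was -9.78 ± 0.57 (adjusted p = 9.66e-11). In the other animals its head difference was 2.21 (adjusted p = 0.0228), but the 3N female abdomens had 252, 223, 97.1, 17.1 and 125 CPM of CYP4AB12, and the abdominal difference was 0.21 (adjusted p = 0.731).

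SP43 had 0.308 to 0.913 CPM in 2N female abdomens against 47.9 to 113 CPM in 2N male abdomens, and 1.95 to 8.03 CPM in 2N female heads against 0.114 to 0.631 CPM in 2N male heads. SP128 was alike, with differences of -9.0 ± 0.62 and 2.53 ± 0.48. The antimicrobial peptide gene Def2-3 had 3 counts over the 2N female abdomens, against 0.26 to 1.72 CPM in 2N male abdomens (ratio 36.9, 95% counting interval 12.5 to 180), and 39.3, 56.6, 46.4, 42.9 and 39.2 CPM in 2N female heads, against 7.67, 11.3, 8.99, 6.14 and 5.17 CPM in 2N male heads. Its head difference in the other animals was -0.68 (adjusted p = 0.63). Of the 7 immune genes tested, 0 rose and 5 fell in female abdomens, beside 30.1% and 41.9% of all genes. In heads Def2-3 alone rose and 0 fell, beside 4.11% and 7.7% of all genes. LOC100116769 had differences of -7.27 ± 0.92 and 5.86 ± 1.00, and again of -6.58 and 5.01 in the other animals (adjusted p = 2.34e-05 and 0.0157). Its highest library in 2N female heads stood at 1.39 CPM, and 4 of the 5 male heads had no count.

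The reference order of genes was used to ask how often a gene lay beside another of its class. This was so for 15.7% of the genes female-biased in both tissues and 21.2% of those male-biased in both, for 49.0% and 32.5% of those female-biased and male-biased in abdomens alone, and for 0% and 7.04% of the genes reversed toward the female and the male abdomen. By chance alone a larger class has more neighbours of its own kind, and these 6 classes hold between 0.631% and 21.4% of the genes. The share to expect from class size was not computed, so the part of class size in these shares was not tested.

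The 3N females and 1N males gave the same comparison in other animals, with ploidy added to sex. The interaction passed for 6999 of 11725 genes tested (59.7%). In abdomens 3171 genes (27%) were higher in 3N females and 3927 (33.5%) higher in 1N males, and in heads 83 (0.708%) and 323 (2.75%). Here 36 genes (0.307%) were female-biased in both tissues and 220 (1.88%) male-biased in both. In abdomens alone 2017 (17.2%) were female-biased and 853 (7.28%) male-biased, and in heads alone 1 (0.00853%) and 15 (0.128%). The reversed classes held 37 genes (0.316%) toward the female abdomen and 13 (0.111%) toward the male abdomen.

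The diploid classes were looked up in these libraries tissue by tissue. Of the genes female-biased in both tissues in diploids, 202 of 214 tested were again female-biased in abdomens and 16 in heads, where the median difference was 0.11. Of those male-biased in both, 635 of 713 were again male-biased in abdomens and 177 in heads, where the median was -1.06. The whole class was kept by 14 and 165 genes. For the genes restricted to abdomens, 1804 female-biased (69.1%) and 670 male-biased genes (35.1%) had the same class again. Of the genes restricted to heads, 0 female-biased and 8 male-biased kept their class, and of the reversed genes 10 and 12. A fit without the 3N female abdomen B39A and the 1N male abdomen B6A used the same head libraries. It called 20 of 215 genes of the female-biased class and 305 of 720 of the male-biased class again in heads (medians 0.11 and -1.07). Head calls in the other animals thus depended on which abdomens were in the fit. The adjusted p-values given for these animals come from the fit with both abdomens.

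The 2N and 3N female abdomens are set side by side here as values, with classes chosen on the 2N libraries. The median of the genes male-biased in abdomens alone was 2.41 to 2.82 CPM in the 4 diploid female abdomens and 49.5 to 56.0 CPM in the diploid male abdomens. It was 18.1, 14.9, 15.5, 3.77 and 10.6 CPM in the 3N female abdomens, where the low value is library B39A, and 46.4 to 52.2 CPM in the 1N male abdomens. All heads lay between 58.7 and 78.7 CPM. The 1N male abdomen B6A, at 50.7 CPM, lay within its group for this class. For the genes male-biased in both tissues B6A was the lowest of its group, at 33.8 CPM beside 40.6 to 49.2 CPM. Without B39A and B6A, 610 genes (5.07% of 12031) were male-biased in heads and 426 (3.54%) in both tissues, of which 277 were in the diploid class. For the genes female-biased in both tissues the medians were 105 to 125 CPM in 2N and 58.5 to 105 CPM in 3N female abdomens, and for those female-biased in abdomens alone 88.4 to 99.5 CPM and 52.8 to 86.9 CPM. The difference between the diploid and the other animals was not tested.

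**Figure D5:**
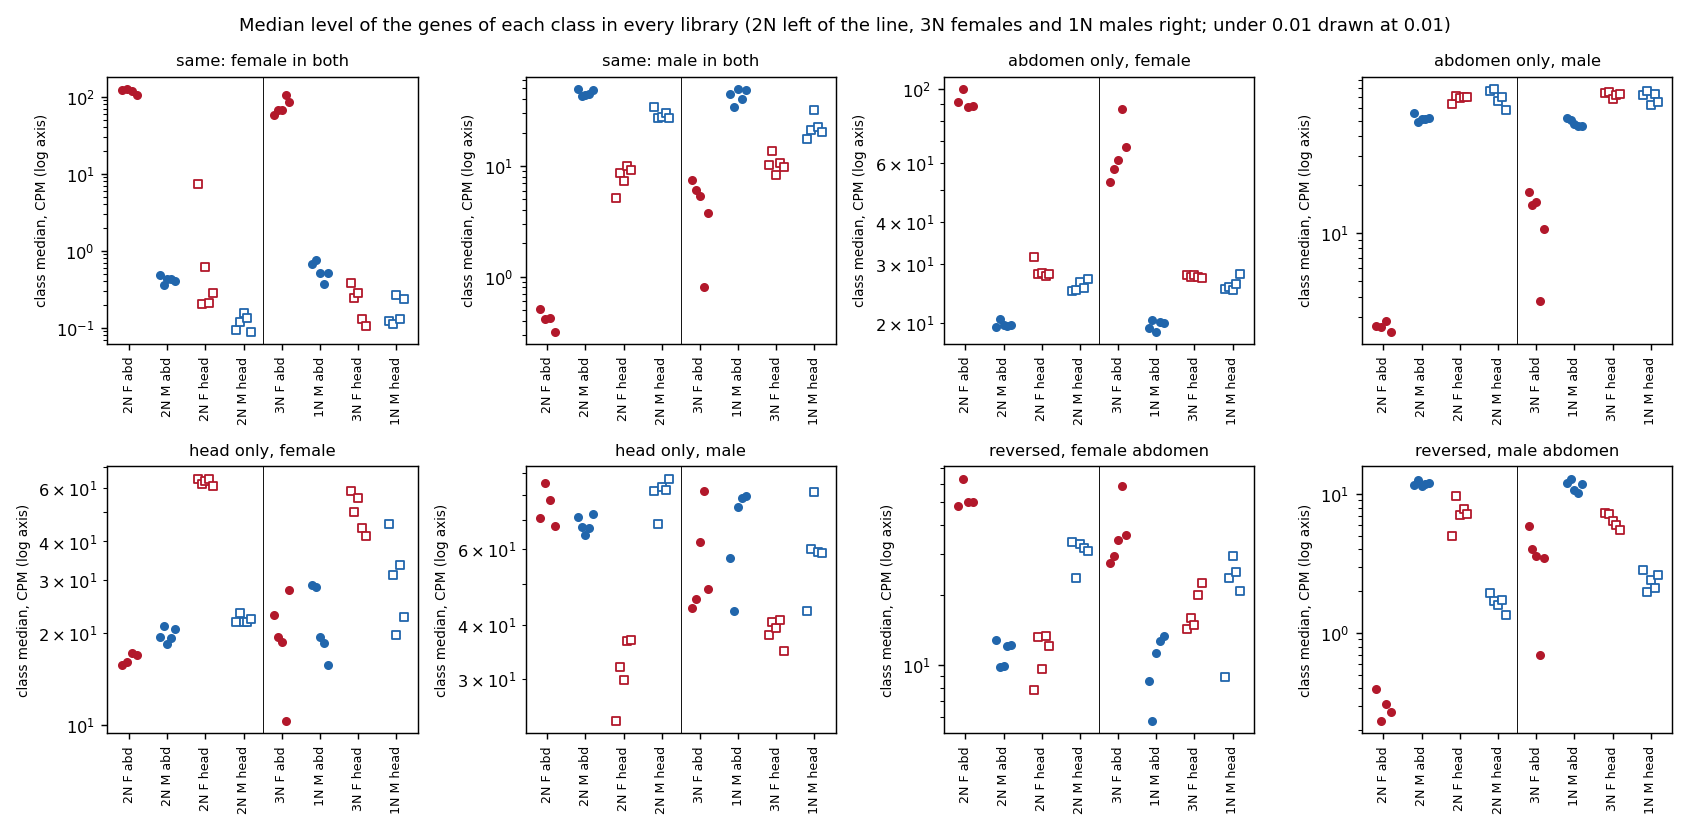
Median CPM (log axis) over the genes of each diploid class in all 39 libraries (filled circles, abdomens; open squares, heads; red, females; blue, males), diploids left of the line and 3N females and 1N males right of it. The classes were chosen on the libraries at left, so the libraries at right are the separate ones. In the genes male-biased in abdomens alone, 2N female abdomens lie at 2.41 to 2.82 CPM and 3N female abdomens at 3.77 to 18.1 CPM.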

How the data were processed

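Estimated counts per gene, without normalization, and TPM, which adjusts for gene length and depth, were both deposited by the authors. STAR 2.7.11a is listed in the submitters' processing notes together with RSEM 1.3.1, neither with a stated role. Which genome build, annotation and strand setting were used is not given in the sources used here. Of the deposited estimated counts 16.8% are not whole, and they were rounded, which moved no value by more than 0.5. All 14621 identifiers matched symbols of the RefSeq table of Nvit_psr_1.1, used for names and neighbour order only, and 667 tested genes have a descriptive name.

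The 4 diploid groups were fitted with edgeR 4.0.16 in R 4.3.3 (filterByExpr, TMM, quasi-likelihood F test, 2-sided, Benjamini-Hochberg over 12200 genes). Folds against a group without counts are bounds from 3 counts over the group, and ratios with 1 to 3 counts have 95% intervals for counting error only. Genes with near-identical paralogs, overlapping genes and antisense genes are uncertain. The 3N and 1N libraries were fitted apart. The fits were tested on simulated data.

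Genes were named by a rule: in each class up to 4 genes with a name and 1 without, at 5 CPM or more in the highest group and with no overlap between the sexes, by size of difference, plus Tra, Dsx and Fru and up to 2 members of each gene list in each direction. The text shows a selection. The genes cycB, SPH42, nanos, Para, GluCl, the other receptor subunits, Dcst1 and SP68 were added after their values were seen. The comparison, the classes and the gene lists were chosen with earlier results of these data known, and the lists' symbols were matched to those in the table.

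Alternatives changed the scaling, the filter, the tool (DESeq2 1.42.0, limma 3.58.1 on log2 of the deposited TPM), the libraries in the fit, depth, the least fold and each library in turn. The one without B39A and B6A was chosen after seeing the data.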

Additional observations from a re-analysis of the deposited data

Results flagged for a closer look

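A library was marked where it lay far from the others of its group for a gene shown, which happened in 11 of 155 groups of 4 or 5 libraries examined. Chance marks about 1 in 20 groups. The female head B21 was marked for the most genes, as the lowest of its group for Dsx (152 CPM) and the highest for oskar (94.4 CPM), Cdk4 (10.2 CPM), LOC100679694 (14.6 CPM) and SP37 (18 CPM). It was also the highest female head for 94.2% of the genes of the female abdomen set.

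The male head B12A was marked as the highest of its group for Mrjpl8 (33.5 CPM) and Tm1 (1659 CPM) and as the lowest for CYP6CK11 (33 CPM). The male abdomen B16 was the highest for CYP9AG7 (29.4 CPM), the male abdomen B17 for LOC100114997 (99353 CPM), and the female abdomen B26A for CYP4AB12 (5.36 CPM).

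The sex difference itself differed between the tissues for 9574 genes by the interaction test. Among the reversed genes shown, the interaction was positive for Ap2a2 (3.58), Nedd4 (2.92) and LOC107980460 (13.5). It was negative for CYP4AB12 (-9.78), SP43 (-9.90), SP128 (-11.5), Def2-3 (-7.54), LOC100116769 (-13.1) and Or236 (-6.07).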

How the results depend on the processing

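No paired analysis was possible because the labels give the groups no shared replicate numbers. The main counts were 9574 genes with an interaction, 8792 biased in abdomens, 1442 biased in heads, 938 biased the same way in both, 4520 restricted to abdomens, 76 restricted to heads and 290 reversed. Leaving out each library in turn gave 9390 to 9631, 8609 to 8791, 1167 to 1477, 689 to 985, 4283 to 4553, 68 to 82 and 263 to 303 genes in that order. Without B21, 61 genes were female-biased in both tissues in place of 216. With no least fold there were 3465 genes biased in heads, 2235 the same in both and 871 reversed. With a least fold of 1.5 there were 2250 biased in heads, 1422 the same, 171 restricted to heads and 506 reversed. With a least fold of 4 there were 645 biased in heads, 433 the same, 2739 restricted to abdomens, 6 restricted to heads and 99 reversed, fewer or more by construction. A term for deep libraries gave 923 biased in heads, 33 restricted to heads and 172 reversed, and 97 female-biased in both, and limma on log2(TPM + 1) gave 533 the same in both with a filter and 528 without. The cause was not tested. Limma on TPM also moved the split of abdominal calls to 4070 female-biased and 3686 male-biased genes, against 3677 and 5115 in the main test, and that of the interaction to 4886 positive and 4494 negative genes, against 4359 and 5215. Of 2606 alternative values for the named genes 2562 stayed on the same side of the threshold, 40 lost the call and 4 gained it. Where the main or the alternative value was called, 0 changed direction. Changes of direction between uncalled values were not counted. Mrjpl8, uncalled in the main test (-0.53), ran from -2.12 to 0.81. The interaction of Tm1 lost its call in 18 of 30 alternatives and that of Fru in 6. The number of list members called was 323 (293 to 343 in the alternatives). The number of genes with the same class in the other animals was 2683 (2267 to 2743), and 3036 without B39A and B6A. Counts thinned to the smallest library total gave 1456 genes biased in heads, 70 restricted to heads, 290 reversed and 176 female-biased in both. The term for deep libraries rests on B12A and B27, since the other groups were all deep or all shallow. Depth nearly coincides with sex, which limits the head calls most.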

Other observations

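Besides the genes of the classes above, 1332 of the 3194 genes without a call of bias in either tissue had an interaction, with the larger sex difference in abdomens for 1064 of them. The genes male-biased in abdomens but under 1 CPM in heads held 150 long noncoding RNAs among 1126 (13.3%), beside 4.4% of all genes tested. This group was set by its low level in heads, and the part of level in the share was not tested.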
